A study of Mus musculus with 9 samples.

Results

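The let-7 family in these serum libraries consists of 9 mature miRNAs, namely let-7a, b, c, d, e, f, g and i from the 5′ arm of their hairpins and miR-98-5p. They were taken by their miRBase identifiers from the 876 mature miRNAs listed over the 9 libraries. All 9 had counts in every control and every beads-depleted library, whereas between 5 and 6 of them had a count in an RNase H-depleted library. The family was selected on earlier results of these libraries, namely its counts scaled to the miRNA sum in all 3 groups, among them the low counts of let-7a-5p and let-7f-5p after treatment with RNase H. The rule has no threshold. The differences of its members between groups are therefore given as a description.

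Cell-free RNA came from serum of healthy 129/SVj mice of both sexes, aged 2 to 9 months. All were sedated with tribromoethanol before blood was taken by cardiac puncture, and the study describes no other treatment of them. The labels name 3 serum pools (A, B and C), whereas the protocol speaks of serum of 3 mice that was pooled and divided into aliquots of 200 μl, so the replicates may differ for technical reasons alone. From every pool, 1 portion of RNA went into each of 3 groups. The control fraction was not depleted, the beads fraction was hybridised with biotinylated DNA probes against 5′ fragments of tRNAs and cleared with streptavidin beads, and the RNase H fraction was hybridised with such probes and digested with RNase H, which cuts RNA paired with DNA, and then with DNase I.

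let-7 miRNAs are among the most conserved miRNAs of animals. They pair through their 5′ seed with messenger RNAs such as those of Ras and Hmga2 and lower their output, and LIN28 proteins block the maturation of their precursors in undifferentiated cells. They accumulate in most differentiated tissues and are commonly found in blood. In serum, the number of cells that release a miRNA and the amount released by each cell cannot be told apart.

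The mature sequences (RefSeq, GRCm38.p6) are shown because the members share their seed and are told apart only by a few bases elsewhere. Capitals mark the seed, bases 2 to 8.
let-7a-5p: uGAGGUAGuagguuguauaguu
let-7b-5p: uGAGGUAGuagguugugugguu
let-7c-5p: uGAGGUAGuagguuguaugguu
let-7d-5p: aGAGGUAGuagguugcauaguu
let-7e-5p: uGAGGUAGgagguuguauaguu
let-7f-5p: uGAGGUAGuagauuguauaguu
let-7g-5p: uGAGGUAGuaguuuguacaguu
let-7i-5p: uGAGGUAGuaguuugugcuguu
miR-98-5p: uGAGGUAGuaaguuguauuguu

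All 9 members are 22 bases long and carry the same seed. The bases are the same in all members at 14 of the 22 positions. The next set shows the same sequences with capitals at the bases that differ from let-7a-5p.
let-7b-5p: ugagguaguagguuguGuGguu
let-7c-5p: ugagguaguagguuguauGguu
let-7d-5p: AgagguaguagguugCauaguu
let-7e-5p: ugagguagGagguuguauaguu
let-7f-5p: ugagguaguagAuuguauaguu
let-7g-5p: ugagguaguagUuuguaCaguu
let-7i-5p: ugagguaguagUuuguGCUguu
miR-98-5p: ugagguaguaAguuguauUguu

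With positions counted from 1 at the 5′ end and the base of let-7a-5p first, let-7c-5p differs from let-7a-5p by A19G, let-7f-5p by G12A and let-7e-5p by U9G. let-7b-5p differs by A17G and A19G, and let-7d-5p by U1A and U16C. let-7g-5p carries G12U and U18C, let-7i-5p carries G12U, A17G, U18C and A19U, and miR-98-5p carries G11A and A19U. Of the 36 pairs of members, 4 have the same first 16 bases and differ only in the 3′ part, namely the 3 pairs among let-7a-5p, let-7b-5p and let-7c-5p and the pair of let-7g-5p and let-7i-5p. Reads of at least 15 bases were kept and mapped without mismatches. A read of let-7a-5p or let-7c-5p that ends before base 19 matches both, since they share their first 18 bases, and the files do not show how such reads were assigned.

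The members are made from 12 hairpins (GRCm38.p6). Mirlet7a-1 (chr13:48538179-48538272), Mirlet7f-1 (chr13:48537829-48537917) and Mirlet7d (chr13:48536012-48536114), all on the minus strand, lie in exons of the non-coding gene 6720427I07Rik. Mirlet7c-2 (chr15:85706603-85706697) and Mirlet7b (chr15:85707319-85707403), on the plus strand, lie in exons of the non-coding gene Lncppara. Mirlet7f-2 (chrX:151912346-151912428) and Mir98 (chrX:151913214-151913321), on the plus strand, are in introns of Huwe1, a protein-coding gene for a ubiquitin ligase. Mirlet7g (chr9:106178840-106178927, plus strand) is in an intron of the protein-coding gene Wdr82, Mirlet7e (chr17:17830352-17830444, plus strand) in an intron of the protein-coding gene Spaca6, and Mirlet7c-1 (chr16:77599657-77599750, plus strand) in an intron of the non-coding gene Mir99ahg and opposite an intron of Gm11146. Mirlet7a-2 (chr9:41536716-41536811, plus strand) is in introns of the non-coding genes 3110039I08Rik and Gm49317, and Mirlet7i (chr10:122985640-122985724, minus strand) is in an exon of the pseudogene transcript D630033A02Rik. The counts of let-7a-5p, let-7c-5p and let-7f-5p cannot be divided between the hairpins that make them.

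The miRNA counts of a library, to which the members were scaled, ranged from 205185 to 330676 without depletion, from 1822088 to 1995956 with beads and from 1199 to 2040 with RNase H. A count of 3 corresponded to at most 0.00146% of the miRNA counts without RNase H, but with RNase H to a share of 0.147% to 0.2502%. Replicates of a group differed by more than sampling noise (chi-square per degree of freedom of at least 1.37 between any pair), so none was taken for the same library deposited more than once. This does not show that they are separate biological samples. In the control libraries miR-16-5p (MIMAT0000527), which is abundant in red blood cells, was the most abundant miRNA, at 13.5% to 13.7% of the counts.

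In control libraries the 9 members together held 2.69%, 2.89% and 2.97% of the miRNA counts in pools A, B and C, with a mean of 2.85% ± 0.147 (SD, n = 3). After depletion with beads the share was 2.13%, 2.48% and 2.26%, with a mean of 2.29% ± 0.176 (SD, n = 3). The highest beads-depleted library was lower than the lowest control library. After depletion with RNase H it was 1.81%, 1.26% and 1.75%, with a mean of 1.61% ± 0.301 (SD, n = 3), below the libraries of the other two groups. The RNase H shares rest on 37, 25 and 21 counts, and their Wilson 95% confidence intervals were 1.32% to 2.49%, 0.858% to 1.86% and 1.15% to 2.66%. The intervals of pools A and C reach the range of the beads-depleted libraries.

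**Figure D1:**
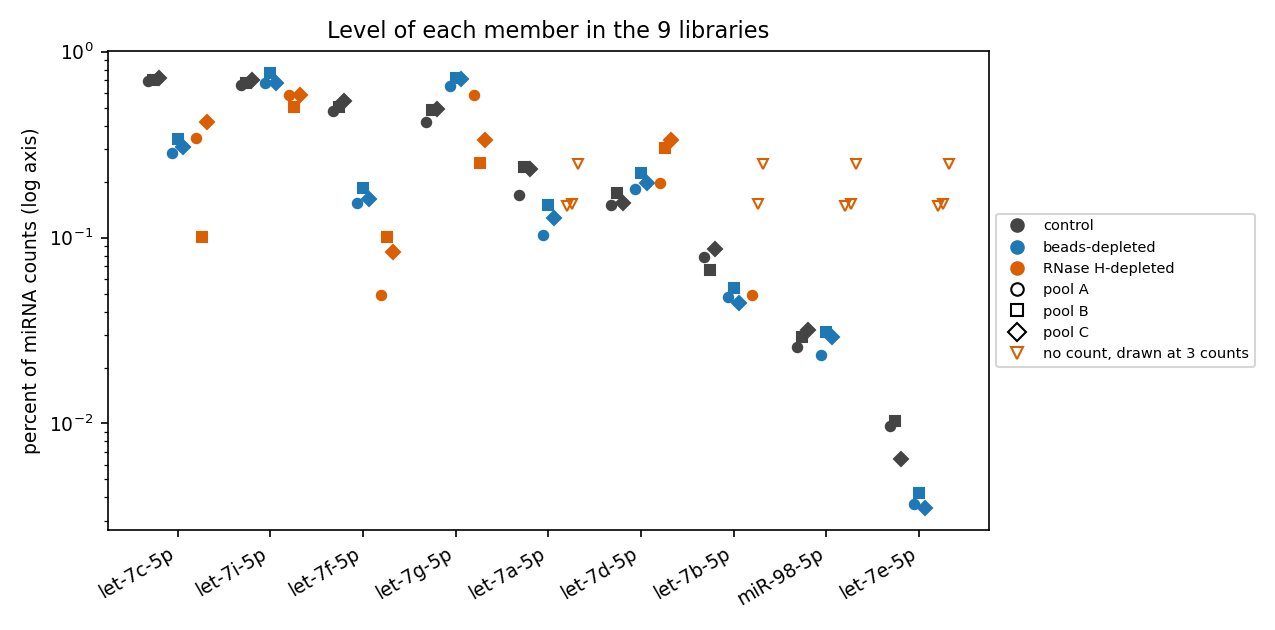
Level of each member as a percent of the miRNA counts (log axis) in the 9 libraries, coloured by group and marked by pool. Open triangles stand for libraries without a count and are drawn at the share of 3 counts. let-7c-5p and let-7i-5p lead in control libraries at 0.705% and 0.684% on average, whereas let-7i-5p and let-7g-5p lead after depletion with beads.

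let-7c-5p (MIMAT0000523) was the most abundant member in control libraries, with 0.694%, 0.701% and 0.721% of the miRNA counts in pools A, B and C. let-7i-5p (MIMAT0000122) followed with 0.666%, 0.681% and 0.705%, and the libraries of these members overlapped. let-7f-5p (MIMAT0000525) held 0.478%, 0.505% and 0.545%, which overlapped with let-7g-5p (MIMAT0000121) at 0.417%, 0.484% and 0.490%. These 4 members ranked between 25 and 35 among all miRNAs of their control library.

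let-7a-5p (MIMAT0000521) held 0.170%, 0.240% and 0.234%, and let-7d-5p (MIMAT0000383) 0.149%, 0.174% and 0.154%. Their ranges overlapped only through pool A, the lowest of let-7a-5p. let-7b-5p (MIMAT0000522) was lower at 0.0790%, 0.0665% and 0.0869%. miR-98-5p (MIMAT0000545) had 53, 97 and 79 counts and held 0.0258% to 0.0318%, and let-7e-5p (MIMAT0000524) was the lowest with 20, 34 and 16 counts and 0.00643% to 0.0103%. The mean control levels of the highest and the lowest member thus ranged from 0.705% ± 0.0137 to 0.00882% ± 0.00208 (SD, n = 3).

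The comparison of beads-depleted with control libraries addresses whether relative miRNA levels were kept by the depletion procedure as a whole. Both depletion procedures included heating and an ethanol precipitation, which the study does not describe for the control fraction. The effects of these steps and of the capture or digestion cannot be told apart. Within the family the levels were not kept evenly. let-7f-5p, let-7e-5p, let-7c-5p, let-7a-5p and let-7b-5p were lower relative to all miRNAs, let-7g-5p and let-7d-5p were higher, and let-7i-5p and miR-98-5p differed by less than their spread. The raw counts of all 9 members were higher with beads in every pool, since a beads-depleted library had 7.58 ± 1.69 times (SD, n = 3) the miRNA counts of the control library of its pool.

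let-7f-5p had the largest difference. It held 0.154%, 0.185% and 0.161% in beads-depleted pools A, B and C against 0.478%, 0.505% and 0.545% in control libraries. The groups did not overlap. Its log2 fold change in edgeR was -1.61 ± 0.080 (SE), which was the fifth lowest of the 307 miRNAs tested.

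let-7c-5p was reduced by a factor above 2 as well, to 0.287%, 0.340% and 0.307% (log2 fold change -1.17 ± 0.075 SE). let-7e-5p was also reduced by such a factor, with 71, 84 and 64 counts or 0.00369%, 0.00421% and 0.00351% (log2 fold change -1.22 ± 0.25 SE). Its larger error goes with the 16 to 34 counts it had in control libraries. let-7a-5p held 0.103%, 0.150% and 0.128% after depletion with beads (log2 fold change -0.76 ± 0.088 SE), and let-7b-5p held 0.0478%, 0.0539% and 0.0442% (log2 fold change -0.66 ± 0.11 SE). For each of these members the groups did not overlap.

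let-7g-5p moved in the other direction, with 0.653%, 0.721% and 0.715% in beads-depleted libraries against 0.417%, 0.484% and 0.490% in control libraries (log2 fold change 0.59 ± 0.073 SE). let-7d-5p, which differs from let-7a-5p at its first base and at base 16, held 0.181%, 0.221% and 0.196% against 0.149%, 0.174% and 0.154% (log2 fold change 0.32 ± 0.089 SE). The libraries of the groups did not overlap for either member. let-7i-5p held 0.677%, 0.772% and 0.680%, and its libraries overlapped with those of the control group (log2 fold change 0.06 ± 0.071 SE). miR-98-5p held 0.0234%, 0.0309% and 0.0293%, also with overlap (log2 fold change -0.06 ± 0.14 SE). The differences of these last members were smaller than their errors.

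**Figure D2:**
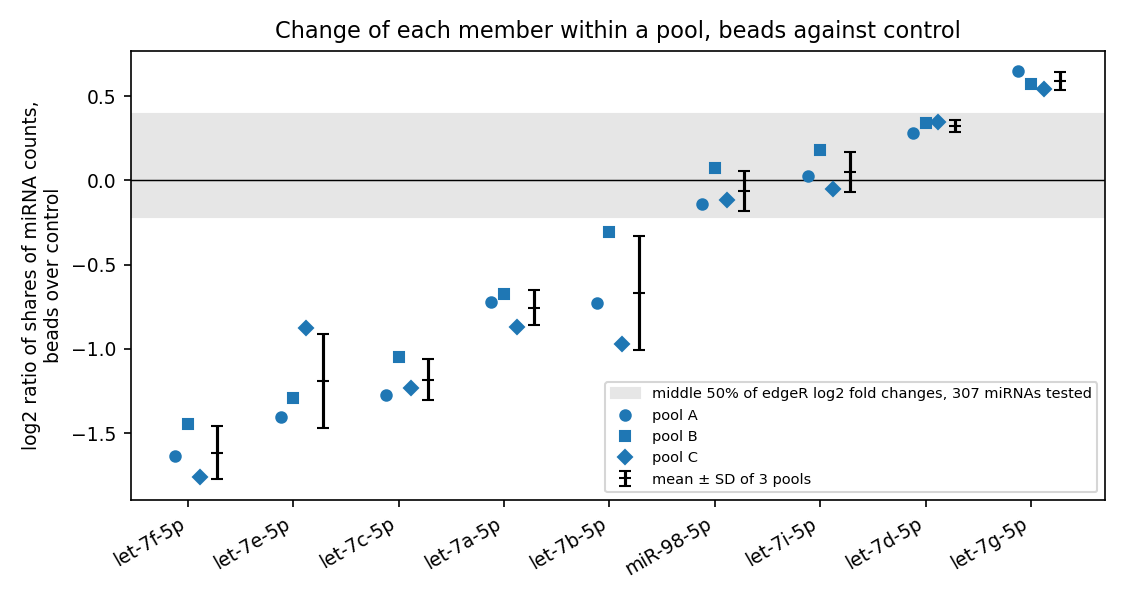
Log2 ratio of each member's share of miRNA counts, beads over control within a pool (points), with the mean ± SD of 3 pools. The grey band spans the middle 50% of the log2 fold changes of the 307 miRNAs tested (-0.22 to 0.40). The 5 members on the left lie below the band in every pool, and let-7g-5p lies above it in every pool.

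All 9 members passed the filter on low counts in this comparison. With edgeR's quasi-likelihood test and an adjusted p below 0.05, 7 of the 9 members passed (5 lower and 2 higher), beside 26.7% of all 307 miRNAs tested (10.1% lower and 16.6% higher). The libraries of the groups did not overlap for the same 7 members, beside 38.8% of all tested miRNAs (16% lower and 22.8% higher). The median log2 fold change was -0.66 for the 9 members and 0.04 for all tested miRNAs. Since the family was chosen with results of this comparison known, these counts are no evidence about the family as a group. let-7d-5p no longer passed when pool B was left out, which left 6 members, beside 65 of the 311 miRNAs tested without that pool.

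The composition of the family, the share of each member in the counts of all 9, does not depend on the scaling of a library. let-7f-5p made up 17.9% ± 0.434 of the family in control and 7.27% ± 0.192 in beads-depleted libraries (SD, n = 3). let-7c-5p went from 24.8% ± 0.908 to 13.6% ± 0.123, and let-7a-5p from 7.497% ± 1.03 to 5.52% ± 0.622. let-7g-5p went from 16.2% ± 0.656 to 30.4% ± 1.26, let-7i-5p from 24.0% ± 0.664 to 31.0% ± 0.872 and let-7d-5p from 5.59% ± 0.429 to 8.70% ± 0.210. let-7b-5p went from 2.72% ± 0.363 to 2.12% ± 0.150, and let-7e-5p from 0.312% ± 0.0825 to 0.166% ± 0.00948. For miR-98-5p the share was 1.01% ± 0.0537 and 1.21% ± 0.101. The control and beads-depleted libraries overlapped for none of the 9 members, and each difference in means exceeded the SD of either group. The shares of a library add up to the whole family, so lower shares of some members require higher shares of others. This separation therefore does not single out any member. let-7i-5p thus took a larger part of the family although its share of all miRNA counts differed by less than its error.

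**Figure D3:**
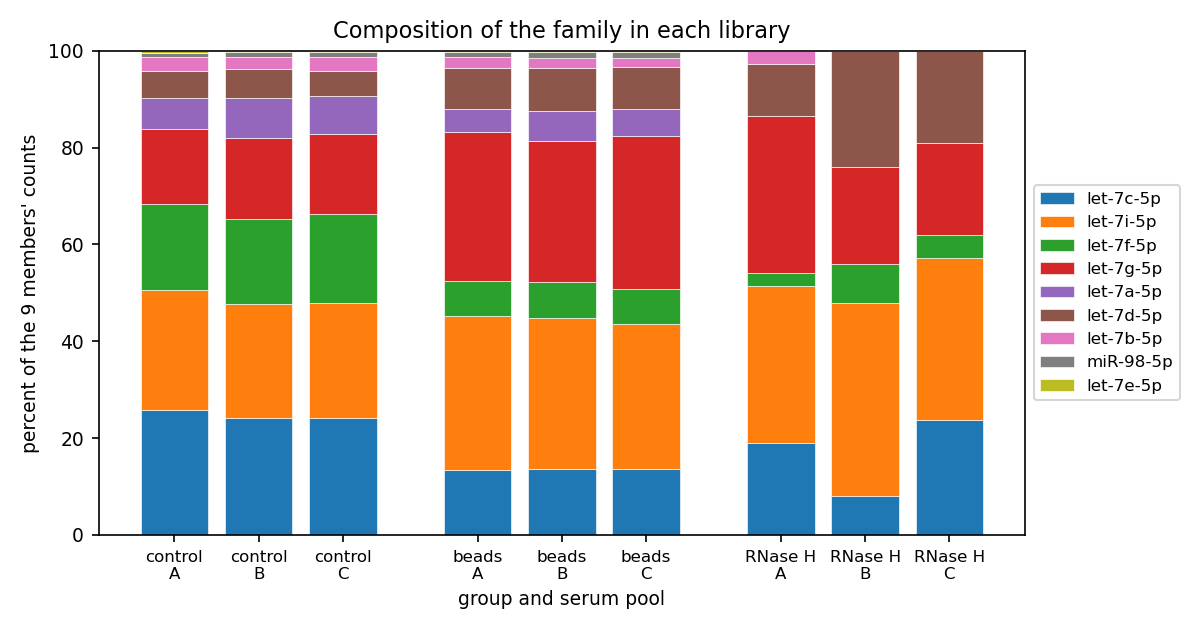
Share of each member in the counts of the 9 members (percent, stacked from 0 to 100) in each library, by group and serum pool. let-7f-5p and let-7c-5p take a smaller part and let-7g-5p a larger part in all 3 beads-depleted than in all 3 control libraries; the RNase H-depleted libraries rest on 21 to 37 counts each.

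The 5 members that were lower with beads held together 1.52% ± 0.0812 of the miRNA counts in control and 0.657% ± 0.0701 in beads-depleted libraries (SD, n = 3), whereas the other 4 held 1.34% ± 0.0680 and 1.63% ± 0.106. These sums restate how the members were grouped. Read against the sequences above, none of these 5 members carries U16C, U18C or A19U relative to let-7a-5p, whereas each of the other 4 carries at least 1 of them, let-7d-5p U16C, let-7g-5p U18C, miR-98-5p A19U and let-7i-5p both U18C and A19U. These 3 substitutions were singled out after the values had been seen, and with 9 related sequences this is a description of the members only. The number of G and C bases did not separate them, with 7 to 10 of 22 bases in the members that were lower and 7 to 9 in the others.

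Pairs of members that differ only after base 16 were compared by the ratio of their counts within a library, which no normalization enters. let-7c-5p exceeded let-7a-5p, from which it differs by A19G, by a factor of 4.08, 2.92 and 3.08 in control pools A, B and C and of 2.78, 2.26 and 2.40 in beads-depleted pools. The log2 ratio was lower with beads by 0.36 to 0.55 in all 3 pools, with a mean difference of -0.43 ± 0.11 (SD, n = 3). Because a read shorter than 19 bases cannot separate the pair, this ratio may mix the members, and how far it does was not tested.

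let-7c-5p exceeded let-7b-5p, the pair that differs by G17A from let-7b-5p to let-7c-5p, by a factor of 9.21 ± 1.18 in control and 6.42 ± 0.479 in beads-depleted libraries (SD, n = 3). The difference of the log2 ratio was -0.52 ± 0.24 (SD, n = 3) and had the same direction in all 3 pools. The ratio of let-7a-5p to let-7b-5p was 2.82 ± 0.733 in control and 2.62 ± 0.398 in beads-depleted libraries. Its log2 difference was -0.09 ± 0.25 (SD, n = 3), within the spread between pools and without a common direction.

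let-7i-5p exceeded let-7g-5p by a factor of 1.60, 1.41 and 1.44 in control libraries, whereas the ratio was 1.04, 1.07 and 0.952 in beads-depleted libraries. The pair differs by A17G and A19U from let-7g-5p to let-7i-5p. The log2 ratio was lower in all 3 pools with a mean difference of -0.54 ± 0.13 (SD, n = 3), so that members with a common first 16 bases did not keep their ratio either. The pair that moved most apart among the 9 pairs computed was let-7g-5p and let-7c-5p, with a ratio of 0.657 ± 0.0493 in control and 2.24 ± 0.107 in beads-depleted libraries (SD, n = 3).

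**Figure D4:**
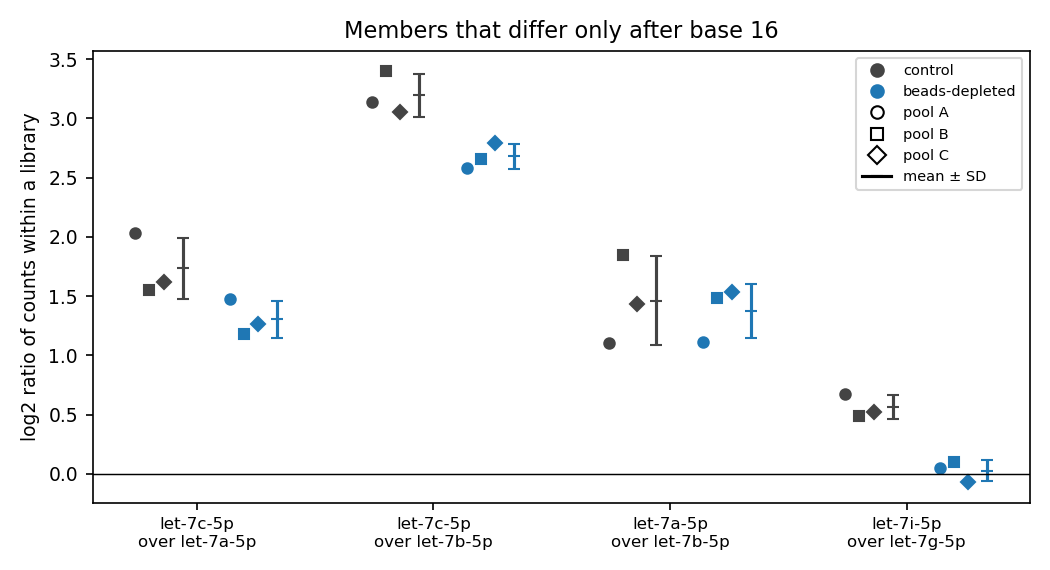
Log2 ratio of the counts of 2 members within a library, for the 4 pairs that differ only after base 16, in control and beads-depleted libraries (points by pool, lines for mean ± SD). The ratio is lower with beads in all pools for let-7c-5p over let-7a-5p, let-7c-5p over let-7b-5p and let-7i-5p over let-7g-5p, and is not separated for let-7a-5p over let-7b-5p.

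Ratios were also computed for the single-base neighbours of let-7a-5p outside the 3′ part. The ratio of let-7a-5p to let-7f-5p, which differ by G12A, was 0.420 ± 0.0601 in control and 0.760 ± 0.0779 in beads-depleted libraries, a log2 difference of 0.86 ± 0.076 (SD, n = 3). The ratio of let-7a-5p to let-7e-5p, which differ by U9G, had a log2 difference of 0.43 ± 0.37 (SD, n = 3), with values of 0.68, 0.61 and 0.0043 in pools A, B and C. This difference was close to 0 in pool C, where let-7e-5p had 16 control counts, and the ratios of the groups overlapped.

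Depletion with RNase H left 37, 25 and 21 counts of the family in pools A, B and C. let-7i-5p had 12, 10 and 7 counts, let-7g-5p 12, 5 and 4, let-7c-5p 7, 2 and 5, and let-7d-5p 4, 6 and 4. let-7f-5p had 1, 2 and 1 counts, let-7b-5p had 1 count in pool A and none in the other pools, and let-7a-5p, let-7e-5p and miR-98-5p had none. With the shares of the control libraries of the same pools, the numbers of miRNA counts would give 36.7 counts of let-7c-5p, 35.5 of let-7i-5p, 26.3 of let-7f-5p, 23.9 of let-7g-5p, 11.0 of let-7a-5p and 8.34 of let-7d-5p over the 3 libraries. For let-7b-5p it would be 3.97, for miR-98-5p 1.49 and for let-7e-5p 0.479 counts.

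**Figure D5:**
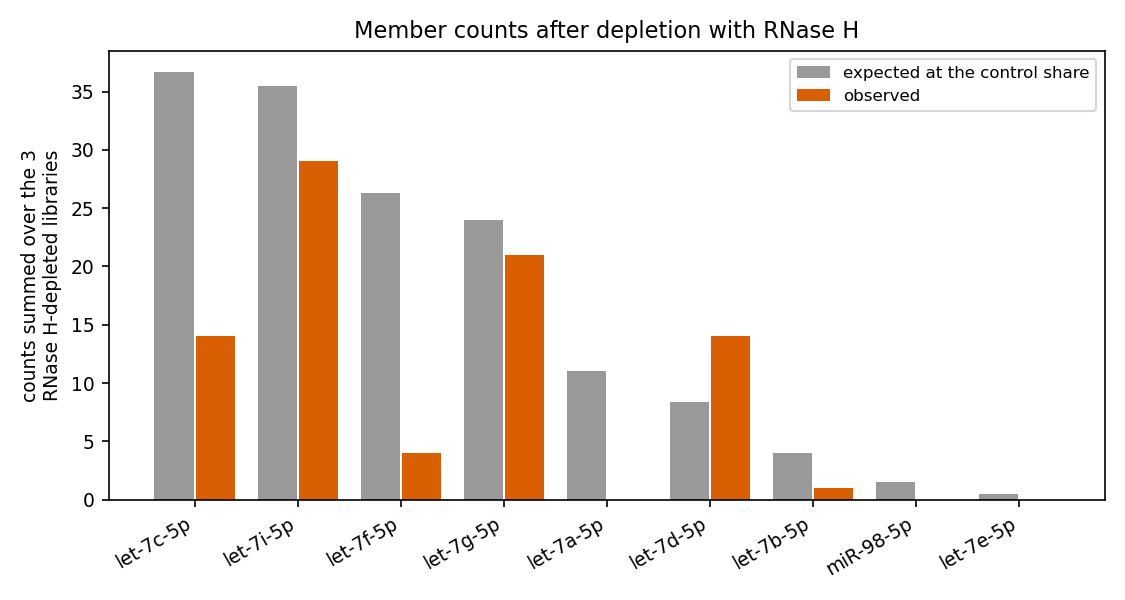
Counts of each member summed over the 3 RNase H-depleted libraries (orange) beside the counts that the control shares of the same pools would give (grey). let-7f-5p has 4 counts beside 26.3, let-7c-5p 14 beside 36.7 and let-7a-5p none beside 11.0, whereas let-7d-5p has 14 beside 8.34.

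let-7f-5p held 0.0490%, 0.101% and 0.0834% of the miRNA counts after RNase H, below every control library, with a log2 fold change of -2.85 ± 0.44 (SE, edgeR). The ratio of the shares summed over the libraries was 0.150 (exact 95% interval for counting error 0.0409 to 0.385). let-7c-5p held 0.343%, 0.101% and 0.417%, also below every control library, with a log2 fold change of -1.51 ± 0.33 (SE). Its spread was wide, since pool B had 2 counts. let-7a-5p had no count, and 3 counts over the group, taken as the floor, would be 3.82-fold lower than in control libraries. The upper exact 95% limit of its ratio of summed shares was 0.322.

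let-7i-5p held 0.588%, 0.506% and 0.584%, slightly below the control libraries, with a log2 fold change of -0.41 ± 0.23 (SE), which was -0.19 with another normalization (RLE). let-7g-5p held 0.588%, 0.253% and 0.334% and overlapped with the control libraries (log2 fold change -0.32 ± 0.31 SE). let-7d-5p held 0.196%, 0.303% and 0.334%, above the control libraries, with a log2 fold change of 0.63 ± 0.41 (SE). The ratio of the summed shares of let-7d-5p was 1.66 with an exact 95% interval of 0.907 to 2.80, which includes no change. For let-7b-5p the ratio was 0.251 (exact 95% interval 0.00636 to 1.41), and the levels of let-7e-5p and miR-98-5p in control libraries were below the share that 3 counts over the group give, 0.0575%, so that a decrease was not detectable at this depth. Their counts of 0 bound an increase, with an upper exact 95% limit of the ratio of 2.44 for miR-98-5p and 8.14 for let-7e-5p.

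The filter on low counts was passed by 8 of the 9 members in this comparison, all but let-7e-5p, and the 2 of them without RNase H counts passed through the control libraries. let-7a-5p, let-7c-5p and let-7f-5p passed an adjusted p of 0.05 (edgeR), all lower, and the other 5 did not, beside 11.6% of the 138 miRNAs tested (5.07% lower and 6.52% higher). Among these 8 members the libraries of the groups overlapped only for let-7g-5p, with 6 lower and 1 higher, beside a non-overlap in 40.6% of the tested miRNAs (28.3% lower and 12.3% higher). The 6 include miR-98-5p, whose shares of 0 lie below any control library at this depth, and let-7b-5p with 1 count, so that this tally does not show a lower level for either. The median log2 fold change of all tested miRNAs was -0.19. This contrast, too, was known when the family was chosen, and it uses the same control libraries as the comparison with beads. Of the members only let-7f-5p passed when pool C was left out, beside 4 of the 140 miRNAs tested without that pool.

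Between RNase H-depleted and beads-depleted libraries, 1 of the 9 members, let-7a-5p, passed (lower), beside 3.8% of the 263 miRNAs tested (2.28% lower and 1.52% higher), and it did not pass when any single pool was left out. let-7a-5p had no count with RNase H and passed the filter on low counts through the beads-depleted libraries, as did let-7e-5p and miR-98-5p. The low counts of let-7a-5p after RNase H were known when the family was chosen, so its call restates the choice. For let-7a-5p the same floor lay 2.22-fold below the level with beads. The upper exact 95% limit of its ratio of summed shares was 0.555. The libraries did not overlap for 6 of the 9 members, all lower with RNase H, beside 57.4% of the tested miRNAs (52.9% lower and 4.56% higher). The 6 include these 3 members without a count. For let-7e-5p and miR-98-5p, with 0.2005 and 1.44 counts expected from the beads shares, the lower position is set by depth and shows no difference. The ratio of the summed shares was 0.578 (exact 95% interval 0.358 to 0.884) for let-7g-5p, 0.782 (0.524 to 1.12) for let-7i-5p and 0.459 (0.125 to 1.18) for let-7f-5p. The log2 fold change of let-7g-5p in edgeR was -0.94 ± 0.32 (SE), close to the median of -0.85 for all tested miRNAs, and it was not called. In RNase H-depleted libraries let-7i-5p made up 35.3% ± 4.13 of the family, let-7g-5p 23.8% ± 7.47, let-7d-5p 17.95% ± 6.66 and let-7c-5p 16.9% ± 8.09 (SD, n = 3).

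Of the 130 other miRNAs tested in the RNase H comparison, those whose level over the 9 libraries was most like that of the summed family were MIMAT0000517 and MIMAT0000904. The files do not pair these identifiers with names. Their Euclidean distances from the family in centred log2 level were 0.565 and 0.582. MIMAT0000517 held 1.103% ± 0.0101 of the miRNA counts without depletion, 1.04% ± 0.0527 with beads and 0.835% ± 0.200 with RNase H (SD, n = 3).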

How the data were processed

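The deposited values are raw read counts without normalization by the authors, in 2 files per library (18 files). One lists each mature miRNA by miRBase identifier, the other each distinct read of other small RNAs, which entered only the total. The authors removed adapters (Cutadapt v1.8.1), discarded reads under 15 bases, filtered on quality (FASTX-Toolkit v0.0.14; score of 20 in 80% of bases), mapped to GRCm38 with Bowtie (v1.1.2, no mismatch) and annotated by position (miRBase v20, Ensembl v84). Reads with a mismatch or an untemplated end are therefore missing. Counts were scaled to the miRNA sum of a library.

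All miRNAs were fitted with edgeR 4.0.16 (R 4.3.3; TMM, filterByExpr, quasi-likelihood test, 2 groups per fit, Benjamini-Hochberg threshold 0.05), which was tested on simulated data. The SE is the log2 fold change over the square root of the F statistic. Wilson and exact intervals (SciPy 1.17.1) and floors cover counting error only, since PCR reads carry no molecular identifiers. Alternatives included DESeq2 1.42.0. An exact permutation test of 3 against 3 libraries cannot go below 0.1, and none was used.

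The members and lists were chosen with earlier results of these data known. All members are named. The pools pair the libraries, since the labels name the pool and, per the study methods, each RNA sample was divided over the 3 groups. Deviations from the group mean correlated between libraries of a pool with a mean r of 0.082 (beads against control) and -0.003 (RNase H against control). Planned counts over 3′ strands and cluster neighbours of the members, and sequence features over all miRNAs, are not analysed here, because no table used here pairs their identifiers with names. For the same reason the 2 most alike miRNAs are given, not 5.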

Additional observations from a re-analysis of the deposited data

How the results depend on the processing

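The direction of the 7 members called between beads-depleted and control libraries was kept under every alternative scaled to miRNA counts. The largest dependence was on the library size. With all annotated counts and no TMM, reads of other small RNAs enter the library size. The median log2 fold change of all tested miRNAs was then 3.37 for beads against control. By edgeR (adjusted p below 0.05) 9 members were higher and 0 lower, beside 332 of the 332 miRNAs tested, all of them higher. The log2 fold changes of the members called lower were then reversed. They were 2.56 for let-7a-5p, 2.67 for let-7b-5p, 2.15 for let-7c-5p, 2.10 for let-7e-5p and 1.72 for let-7f-5p. miR-98-5p, which was not called in the fit reported, was at 3.26. In the RNase H comparisons with this library size, 7 members passed against control, all 7 lower, beside 51 of the 143 miRNAs tested (47 lower). Against beads 9 members passed, all 9 lower, beside 250 of the 257 miRNAs tested (248 lower). There let-7d-5p, which was not called in the fit reported (0.28 ± 0.41 SE), was at -4.51. Adding a change above 2-fold as a condition, which was chosen after seeing the data, left 3 members for beads against control. The share of all tested miRNAs that met this condition was not computed. The RLE, DESeq2, unfiltered, joint and TMM-free fits on miRNA counts called the same members as the fits reported. Over all fits on miRNA counts, the beads log2 fold change ranged from -0.00083 to 0.11 for the uncalled let-7i-5p. For miR-98-5p it ranged from -0.12 to 0.0061. The sign changed only when a pool was left out, pool B for let-7i-5p and pool A for miR-98-5p. RLE moved the median log2 fold change of all miRNAs from -0.19 to 0.03 for RNase H against control. The serum pool as a replicate block changed no call of a member in any of the 3 comparisons, with 7, 3 and 1 called. Of all tested miRNAs, 91 of 307 were then called for beads against control. For RNase H it was 12 of 138 against control and 6 of 263 against beads.

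Leaving out a pool gave 1 to 2 members higher for beads against control (let-7d-5p was lost without pool B). Of all tested miRNAs, 47 of 305, 45 of 311 and 49 of 314 were higher without pools A, B and C. Leaving out a pool gave 1 to 3 members called for RNase H against control, and 1 to 3 lower, with let-7f-5p alone without pool C. All tested miRNAs called were 8 of 144, 30 of 140 and 4 of 140 without pools A, B and C. For RNase H against beads it gave 0 members called and 0 lower in every case by edgeR. All tested miRNAs called were 4 of 274, 18 of 267 and 4 of 281 without pools A, B and C. Fewer libraries enter these fits. DESeq2 with all pools called 1 member, beside 406 of 838 miRNAs, 404 of them higher. The median log2 fold change of all miRNAs in that DESeq2 fit was 5.73. The share of the family was 0.172%, 1.39% and 0.0341% of all annotated counts in control, beads-depleted and RNase H-depleted libraries, so that beads gave the highest value on that scale. It was 3.30% in control and 2.60% in beads-depleted libraries without the most abundant miRNA. The RNase H values are limited by 1199 to 2040 miRNA counts per library.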
